A study of Mus musculus with 8 samples.

Results

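The comparison described here is that of basal ganglia (BG) with cortex (Ctx) in mouse telencephalon heterozygous for a Dlx1/2 mutation. Its members were chosen by the genotype and region in the sample titles: 2 arrays of BG +/- and 2 arrays of Ctx +/-, which are 4 of the 8 arrays in all. The other 4 arrays are BG -/- and Ctx -/-, with 2 arrays each, and they enter the fit to share the estimate of the spread and as a side-by-side genotype. Total RNA was hybridised to oligonucleotide arrays, and the values are signal units on a linear scale, 1 per probe set. The genotypes +/- and -/- come from the titles and the genes Dlx1/2 from the name of the series. No group carries 2 intact alleles, so both regions come from animals that carry the mutation. The source field names blood and adrenal medulla while the description names basal ganglia or cortex, and marker genes of blood and of the adrenal medulla are therefore counted below with those of other tissues. For age, strain, animals per sample and pooling the labels give nothing. The p-values reflect array-to-array spread alone, possibly technical, and the number of arrays limits the precision.

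The basal ganglia arise from the ventral telencephalon, from the ganglionic eminences, which produce GABAergic projection neurons of the striatum and pallidum and the interneurons that migrate into the cortex. The cortex arises from the dorsal telencephalon, whose progenitors produce glutamatergic neurons. DLX homeobox factors act in ventral progenitors and in the GABAergic neurons they produce, and the dorsal program depends on factors such as PAX6, EMX2 and the neurogenins.

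Across probe sets on the log2 scale, Pearson's r between replicates was 0.973 to 0.982, and between BG +/- and Ctx +/- arrays 0.935 to 0.943. Ctx +/- replicate 3 was no closer to its own replicate (0.973) than to either Ctx -/- array (0.977). Its median signal was 38, against 45.7 in Ctx +/- replicate 2 and 46.8 and 46.7 in the BG +/- arrays. The spiked dap control RNA averaged 1115 and 1233 in BG +/- and 364 and 620 in Ctx +/-, and 18S ribosomal RNA, by its 5' probe set, read 1124 and 5265 against 182 and 190. The part of these control differences in the results was not tested. All 4 +/- arrays had Xist, the transcript of the inactive X chromosome, between 34.2 and 67.5, with the Y-linked gene Eif2s3y between 241 and 448. In the -/- arrays Xist lay between 2340 and 2519 and Eif2s3y between 1.2 and 6.46, so sex and genotype cannot be told apart where the genotypes are set side by side.

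Signals were compared as log2(signal + 16), an offset that understates the differences of dim genes. A gene is counted by its brightest single-gene probe set, and called when its limma adjusted p (Benjamini-Hochberg over 31526 probe sets) was under 0.05. By this rule 3375 of 13627 genes, 24.8%, were called: 1912 higher in BG, 14.0%, and 1463 higher in Ctx, 10.7%. The counts of list members given below are to be read against these shares of all genes. By probe sets the calls were 7518 of 31526, 23.8%, with 3489 (11.1%) higher in BG and 4029 (12.8%) higher in Ctx. Most differences were moderate. The log2 difference passed 1 for 669 genes called higher in BG (4.91% of genes tested) and -1 for 449 called higher in Ctx (3.29%). It passed 2 for 76 (0.558%) and -2 for 45 (0.330%), and it passed 3 for 19 (0.139%) and -3 for 5 (0.0367%). The median over all genes was 0.11 and its range -8.24 to 6.07. The signals of the BG and Ctx arrays did not overlap for 65.0% of genes, far more than were called.

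The split between the directions depended on scaling. With each array centred on its median log2, which moved the median gene from 0.11 to -0.01, 1199 genes were higher in BG and 1748 in Ctx, so the BG share of called genes went from 56.7% to 40.7%. The counts in both directions also fell when either BG +/- array was left out. Such a fit has a single array in that group and fewer degrees of freedom. Lost precision and dependence on that array cannot therefore be told apart. The same limit applies to every call lost below when an array is left out. Of the 1912 and 1463 genes, 538 and 509 kept their call and direction in every one of the 18 alternatives in which they were tested.

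Start-site windows of 10 leading genes, 5 for each direction, were searched for a homeodomain core and E-boxes, motifs bound by homeodomain and basic helix-loop-helix factors. For Ctx these are not the 5 of largest difference, since Ttr, Sla and Mfap4 were passed over and not searched. Shown are those of Isl1, Tac1 and Lhx8, the genes of largest excess in BG, and of Neurod6 for Ctx, so that windows with and without a match stand side by side. They are RefSeq windows of 300 bases on GRCm38.p6, 5′ to 3′ in the direction of the gene, for Isl1 at chr13:116309639-116309938 (minus strand), Tac1 at chr6:7554811-7555110 (plus strand), Lhx8 at chr3:154330511-154330810 (minus strand) and Neurod6 at chr6:55681214-55681513 (minus strand). Capitals mark matches, on either strand, to the homeodomain core TAATTA or the E-boxes CAGCTG and, counted together, CATATG with CAGATG.
Isl1: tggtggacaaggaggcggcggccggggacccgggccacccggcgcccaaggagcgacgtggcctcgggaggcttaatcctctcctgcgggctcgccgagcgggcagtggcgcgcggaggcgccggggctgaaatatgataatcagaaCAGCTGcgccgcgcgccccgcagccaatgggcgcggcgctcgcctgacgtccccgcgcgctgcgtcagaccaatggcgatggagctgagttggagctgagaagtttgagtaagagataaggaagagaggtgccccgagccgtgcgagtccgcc
Tac1: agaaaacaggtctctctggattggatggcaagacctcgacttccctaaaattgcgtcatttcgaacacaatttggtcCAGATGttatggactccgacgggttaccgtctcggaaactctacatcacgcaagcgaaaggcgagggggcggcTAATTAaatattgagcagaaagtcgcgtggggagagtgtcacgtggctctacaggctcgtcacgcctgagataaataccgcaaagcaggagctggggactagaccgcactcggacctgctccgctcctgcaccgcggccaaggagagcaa
Lhx8: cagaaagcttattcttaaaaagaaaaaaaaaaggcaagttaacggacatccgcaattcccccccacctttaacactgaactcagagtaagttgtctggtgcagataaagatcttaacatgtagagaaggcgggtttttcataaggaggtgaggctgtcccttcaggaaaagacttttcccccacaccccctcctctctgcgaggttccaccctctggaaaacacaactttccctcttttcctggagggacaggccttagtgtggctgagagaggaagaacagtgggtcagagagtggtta
Neurod6: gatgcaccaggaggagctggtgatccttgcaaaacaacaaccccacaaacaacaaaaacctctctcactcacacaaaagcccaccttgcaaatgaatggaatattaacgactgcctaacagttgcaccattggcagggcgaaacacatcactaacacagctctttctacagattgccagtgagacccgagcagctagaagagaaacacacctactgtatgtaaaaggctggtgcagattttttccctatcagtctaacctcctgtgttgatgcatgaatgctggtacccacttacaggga
The Isl1 window holds 1 CAGCTG, a motif in 16.3% of all 32851 windows. The Tac1 window holds 1 TAATTA, found in 5.29% of windows, and 1 match to CATATG or CAGATG, found in 20.3%. The windows of Lhx8 and Neurod6 hold none of these letters, and neither do those of Zfp503 and Zfhx3 for BG or of Cntn2, Dct and Fezf2 for Ctx. Arpp21, higher in Ctx, has 9 windows, while each other gene searched has 1, and 4 of the 9 hold a match. Some of these windows overlap and hold the same sites. Matches were thus found for genes of both directions, though for Ctx in Arpp21 alone. The unequal number of windows allows no comparison of the directions.

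**Figure D1:**
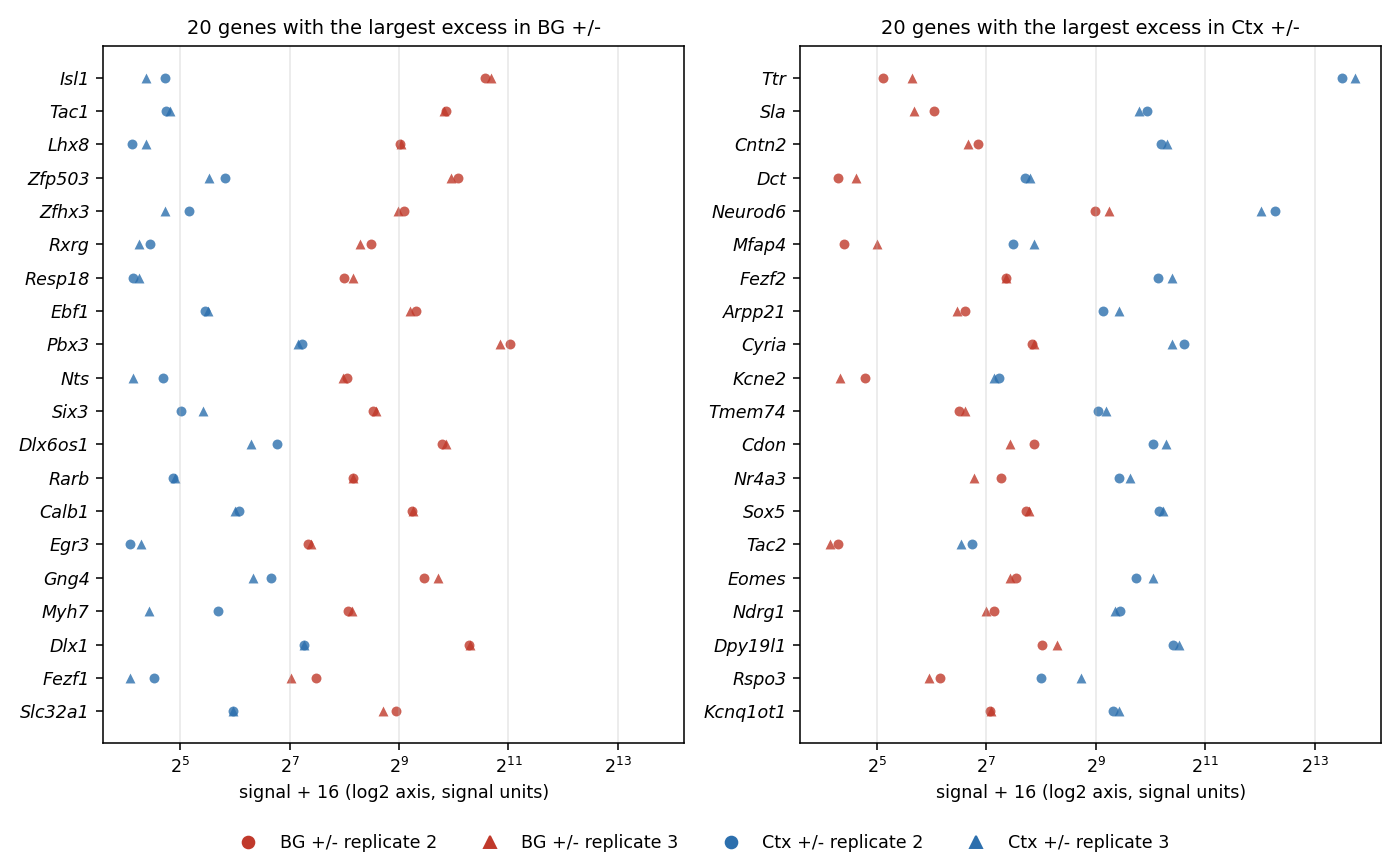
Signal + 16 of the 4 +/- arrays on a log2 axis for the 20 genes with the largest excess in BG (left) and in Ctx (right), with red points for BG, blue for Ctx, circles for replicate 2 and triangles for replicate 3. Each gene's red and blue points are apart, as the choice of non-overlapping genes requires, with the widest gap for Ttr at -8.24 on the log2 scale.

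The gene most in excess in BG was Isl1, a LIM homeobox factor of striatal projection neurons and of cholinergic neurons. It read 1499 and 1629 in the BG +/- arrays and 10.5 and 4.74 in the Ctx +/- arrays, a log2 difference of 6.07 ± 0.16 (SE; limma adjusted p = 2.82e-05). Both BG arrays were high and both Ctx arrays near the floor, and a dimmer Isl1 probe set gave 4.10 ± 0.34. Tac1, the precursor of substance P, which striatal neurons of the direct pathway use, read 918 and 884 against 10.8 and 12.2, a difference of 5.06 ± 0.29. Its other probe set was dim and gave 0.59 ± 0.19, not past the threshold. Lhx8, a LIM homeobox factor of the medial ganglionic eminence, read 505 and 507 against 1.5 and 4.83, a difference of 4.77 ± 0.15. These genes had high signals in BG and almost none in Ctx.

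Zfp503, a zinc finger gene of the lateral ganglionic eminence and striatum, read 1067 and 976 against 40.7 and 30.2. The Ctx arrays were low but not at the floor, and the difference was 4.34 ± 0.29. The homeobox gene Zfhx3 (4.09), the retinoid receptor Rxrg (4.03), the secretory granule gene Resp18 (3.87), the transcription factors Ebf1 (3.78) and Pbx3 (3.75) and the neuropeptide Nts (3.60) completed the 10 largest log2 differences. The next 10 were Six3, Dlx6os1, Rarb, Calb1, Egr3, Gng4, Myh7, Dlx1, Fezf1 and Slc32a1, from 3.33 down to 2.86. All 20, picked by size in these same arrays, were called in every alternative in which they were tested, with a highest limma adjusted p of 0.024. Ebf1 had 3 further probe sets, all called in the same direction, at 3.15, 3.69 and 3.34.

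In Ctx the largest excess was that of Ttr, which encodes transthyretin, a thyroid hormone carrier made by the choroid plexus. It read 11634 and 13605 in the Ctx +/- arrays and 18.6 and 34.3 in BG +/-, a log2 difference of -8.24 ± 0.21 (limma adjusted p = 2.82e-05). The Ctx arrays stood far above the BG arrays, and its 3 other probe sets gave -7.93, -7.65 and -8.06. Sla, an adaptor protein gene that damps receptor signalling, read 964 and 869 in Ctx and 49.8 and 35.4 in BG, a difference of -4.0 ± 0.15. Its 3 other probe sets were also called higher in Ctx, between -1.40 and -2.21.

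Cntn2, an axonal adhesion molecule of the contactin family, read 1162 and 1242 in Ctx and 99.4 and 85.1 in BG, a difference of -3.49 ± 0.17. Neurod6, a basic helix-loop-helix factor of cortical projection neurons, read 4976 and 4119 against 493 and 592, a difference of -3.03 ± 0.15. Neurod6 was thus well above the floor in BG too. Fezf2, which directs the fate of subcortically projecting neurons, read 1116 and 1326 against 149 and 149, a difference of -2.90 ± 0.13. The other genes of the 10 largest were the melanin enzyme Dct (-3.30), the extracellular matrix gene Mfap4 (-2.99), the phosphoprotein gene Arpp21 (-2.75), Cyria (-2.64) and the potassium channel subunit Kcne2 (-2.63). The next 10 were Tmem74, Cdon, Nr4a3, Sox5, Tac2, Eomes, Ndrg1, Rspo3, Dpy19l1 and Kcnq1ot1, from -2.55 to -2.29. All 20, picked in the same way, kept their call in every alternative in which they were tested, with a highest limma adjusted p of 0.0198. Probe sets of Arpp21 differed, with others called at -1.05 and -2.22 and others at -0.68 and 0.41 that were not past the threshold.

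**Figure D2:**
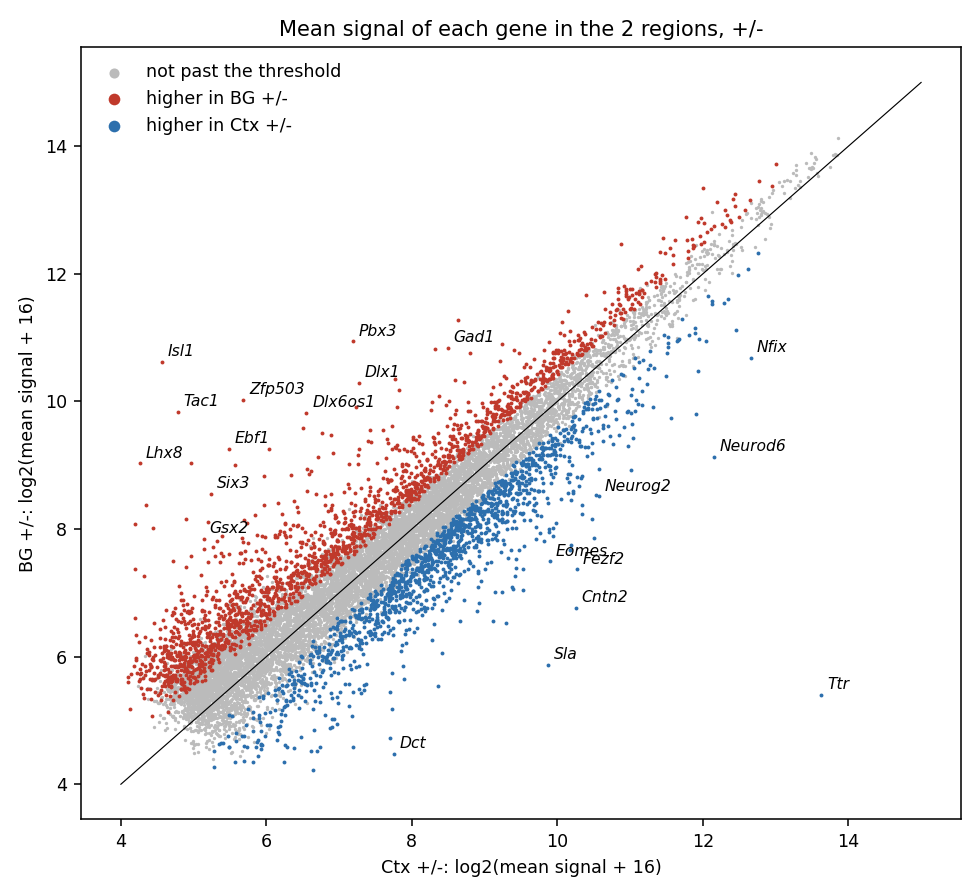
Mean signal of each of 13627 genes in Ctx +/- (horizontal) and BG +/- (vertical), both as log2(mean signal + 16), with called genes in red (higher in BG) or blue (higher in Ctx) and the line of equal signal. Ttr lies farthest below the line and Isl1 farthest above it, at log2 differences of -8.24 and 6.07.

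The DLX genes were higher in BG: 6 of 7 tested were called and none was higher in Ctx, with a median log2 difference of 2.63 against 0.11 over all genes. Dlx1, whose mutated allele the animals carry with that of Dlx2, read 1232 and 1237 in BG and 138 and 137 in Ctx, a difference of 3.03 ± 0.21 (limma adjusted p = 0.000514). Dlx2 read 358 and 287 against 55.3 and 55.3, a difference of 2.24 ± 0.16. Neither was at the floor in Ctx, and in bulk tissue fewer cells of a type and less RNA per cell cannot be told apart. Dlx5, a paralogous DLX gene, read 719 and 706 against 93.9 and 92.3, a difference of 2.74 ± 0.27, and it missed the threshold with an offset of 1 (limma adjusted p = 0.0577). Dlx6 was at 2.63 ± 0.35, and the antisense transcripts Dlx1as at 2.27 ± 0.18 and Dlx6os1 at 3.29 ± 0.20. The strand that these probe sets detect was not examined, so signals of a gene and its antisense transcript cannot be told apart. The member not called was Dlx3, which read 15.2 and 38.3 against 30.7 and 8.93. Dlx4 was below the filter on low signals.

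Genes of the GABAergic phenotype differed in the same direction. Of 6 genes of GABA synthesis, packaging and uptake, 5 were higher in BG and none in Ctx, with a median of 2.17. Gad1, the main GABA-synthesising enzyme, read 1907 and 1720 in BG and 350 and 338 in Ctx, a difference of 2.34 ± 0.18. Gad2, the enzyme isoform of synapses, read 502 and 431 against 75.5 and 89.1, at 2.30 ± 0.14. Both genes were well above the floor in Ctx, and a second probe set of each was also called, at 1.85 and 1.54. Slc32a1, which loads GABA into vesicles, was at 2.86 ± 0.20, though its second, dim probe set gave -0.18 ± 0.29. The GABA transaminase gene Abat was at 2.05 ± 0.23, with a dim second probe set at -0.15. The transporter Slc6a11 was at 1.28 ± 0.23 and lost its call without BG +/- replicate 3 (limma adjusted p = 0.0526) and with an offset of 1. Aldh5a1, the next enzyme of GABA breakdown, was at 0.25 ± 0.16 and was not called.

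Of 9 transcription factors of ventral progenitors, 6 were higher in BG, with a median of 1.55. Six3, a homeobox gene, read 351 and 369 in BG and 16.5 and 26.9 in Ctx, a difference of 3.33 ± 0.17. Gsx2, which patterns the lateral ganglionic eminence, read 235 and 192 against 11.4 and 27.2, a difference of 2.73 ± 0.22. Olig1 and Olig2, basic helix-loop-helix factors of ventral progenitors and of oligodendrocyte precursors, were at 2.39 ± 0.13 and 2.18 ± 0.38. Gbx1 was at 1.55 ± 0.27 and Vax1 at 1.42 ± 0.32. Olig2 lost its call without BG +/- replicate 2 (limma adjusted p = 0.0509), as did Vax1 without that array, BG +/- replicate 3 or Ctx +/- replicate 3, and with an offset of 1. Gsx1, at 1.22 ± 0.36, and Nkx2-1, which defines the medial ganglionic eminence and read 10.1 and 36.7 in BG, were not called. Otx2 was the member higher in Ctx, at -1.0 ± 0.27, and it lost that call without any array other than BG +/- replicate 3.

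Sonic hedgehog, secreted ventrally, signals through the receptor Ptch1 and the GLI factors, with CDON, BOC and GAS1 as co-receptors. Of 10 pathway genes tested, 2 were higher in BG and 5 in Ctx, with a median of -0.54. The ligand Shh read 165 and 156 in BG and 31.4 and 35 in Ctx, a difference of 1.84 ± 0.17, and a dim second probe set gave 0.94 ± 0.37. Ptch1, also a target of the pathway, read 618 and 584 against 203 and 281, at 1.27 ± 0.17. The co-receptors Cdon and Gas1 lay on the side of Ctx. Cdon read 1041 and 1236 in Ctx and 218 and 157 in BG, at -2.51 ± 0.24, and Gas1 774 and 937 against 205 and 256, at -1.82 ± 0.18. Boc was at -0.60 ± 0.14 and lost its call without either BG +/- array or without Ctx +/- replicate 2, with limma adjusted p up to 0.113. Gli3, which acts mainly as a repressor dorsally, was at -1.28 ± 0.14 and Gli2 at -1.06 ± 0.13. Gli1, Smo and Sufu were not called, at 0.82, -0.47 and -0.04.

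Of 16 transcription factors of striatal projection neurons, 11 were higher in BG and none in Ctx, with a median of 1.08. Beside Isl1, Zfp503, Ebf1 and Pbx3, the homeobox gene Meis1 read 206 and 234 in BG and 60.1 and 47.4 in Ctx, a difference of 1.76 ± 0.16. The forkhead factors Foxp2 and Foxp1 were at 1.52 ± 0.14 and 1.27 ± 0.14, from signals of 625 and 559 against 178 and 214 and of 912 and 932 against 339 and 410. Of 7 further Foxp1 probe sets, 5 were called in the same direction, between 0.99 and 1.31. The POU factor Pou3f4 was at 2.30 ± 0.36 and lost its call with an offset of 1 (limma adjusted p = 0.0502). Smaller differences were those of Meis2 (0.68), Pou3f1 (0.63) and Bcl11b (0.53), each of which lost its call without either BG +/- array, and Meis2 and Pou3f1 also without Ctx +/- replicate 3, Pou3f1 also without Ctx +/- replicate 2. Bcl11b, required in striatal and in corticospinal neurons, was bright in both regions, at 2658 and 2693 against 1872 and 1827. Bcl11a, Zfp521, Foxp4, Ikzf1 and Ikzf2 were not called.

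The signalling genes of mature striatal neurons were mixed: 6 of 16 were higher in BG and 3 in Ctx, with a median of 0.42. Penk, the enkephalin precursor of the indirect pathway, read 185 and 168 in BG and 14.8 and 15.8 in Ctx, at 2.62 ± 0.14. The exchange factor Ngef was at 1.62 ± 0.20, Rasgrp2 at 1.41 ± 0.23 and the dopamine receptor Drd2 at 1.37 ± 0.27. Drd2 lost its call without BG +/- replicate 2 (limma adjusted p = 0.0699), and 4 members were then higher in BG. Drd1, the dopamine receptor of the direct pathway, read 123 and 126 in BG and 95.2 and 126 in Ctx and was not called, and neither was Ppp1r1b, the DARPP-32 gene, at -0.72 ± 0.34. The members higher in Ctx were Arpp21, the cannabinoid receptor Cnr1 (-0.92 ± 0.11) and the phosphodiesterase Pde1b (-0.63), which lost its call without either BG +/- array or without Ctx +/- replicate 3.

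Retinoic acid signals through RAR and RXR receptors. Of 11 genes of this pathway, 4 were higher in BG and none in Ctx, with a median of 0.89. Rxrg read 341 and 295 in BG and 5.87 and 2.9 in Ctx, a difference of 4.03 ± 0.42. Rarb read 270 and 271 against 13.2 and 14.1, at 3.27 ± 0.12. The receptors were thus near the floor in Ctx. The binding protein Crabp1 read 426 and 462 against 72.3 and 57.1, at 2.52 ± 0.14, and the degrading enzyme Cyp26b1 was at 1.29 ± 0.21. Rbp4, the serum retinol carrier, was at -0.94 ± 0.28 and was not called (limma adjusted p = 0.0513).

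Of 15 genes of the lineage of the medial ganglionic eminence, 8 were higher in BG and 2 in Ctx, with a median of 0.55. Calb1, a calcium-binding protein, read 591 and 596 in BG and 51.3 and 47.9 in Ctx, at 3.22 ± 0.14. The neuropeptide Sst read 1907 and 1695 against 300 and 306, at 2.51 ± 0.13, and Npy 681 and 647 against 197 and 175, at 1.75 ± 0.13. Lhx6, the homeobox factor of migrating interneurons, read 551 and 521 against 164 and 204, at 1.47 ± 0.14. Sst, Npy and Lhx6 were therefore clearly above the floor in Ctx +/-. The chemokine receptor Ackr3 was at 1.99 ± 0.25, and its partner Cxcr4 at -0.20, not called. Zeb2 was the member most in excess in Ctx, at -1.74 ± 0.14. Satb1 was at -0.63 ± 0.16, and only Zeb2 of these 2 stayed called without BG +/- replicate 2, BG +/- replicate 3, Ctx +/- replicate 3 or any -/- array.

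Interneurons of lateral and caudal ganglionic eminence origin were followed with 9 genes, of which 6 were higher in BG and none in Ctx, with a median of 0.82. Sp8 read 162 and 152 in BG and 53.9 and 45.7 in Ctx, at 1.40 ± 0.13. Tshz1 was at 1.33 ± 0.13 and Nr2f2, a nuclear receptor of the caudal eminence, at 1.11 ± 0.14. Prox1 and Scgn were at 0.82 and 0.72, and the count fell to 3 without BG +/- replicate 3. Of the cholinergic genes, only Ngfr passed the filter, at -0.35 ± 0.20, not called. Chat and Slc18a3, which define cholinergic neurons, were below the filter, with signals from 17.9 to 33.4 in BG +/-.

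The dorsal program was higher in Ctx. Of 11 transcription factors of dorsal progenitors, 9 were higher in Ctx, with a median of -1.50, and these 9 were called in all alternatives in which they were tested. Eomes, the factor of intermediate progenitors, read 839 and 1041 in Ctx and 171 and 156 in BG, at -2.41 ± 0.17. The proneural gene Neurog2 read 1433 and 1587 against 359 and 339, at -2.06 ± 0.13. Their Ctx arrays lay well above BG, where both were nevertheless detectable. Lhx2 read 2224 and 1968 in Ctx and 763 and 589 in BG, at -1.62 ± 0.16, and Pax6 447 and 490 against 184 and 189, at -1.26 ± 0.17, with a dim second Pax6 probe set at 0.31. Dmrta2, Neurog1, Dmrt3, Emx1 and Emx2 lay between -1.82 and -1.10. Fezf1 was the member in excess in BG, at 163 and 114 against 6.93 and 0.919 (2.95 ± 0.24), opposite to its relative Fezf2, and without Ctx +/- replicate 2 a second member joined it. Insm1, shared by progenitors of both regions, was at 0.45, not called.

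Of 23 transcription factors of cortical glutamatergic neurons, 18 were higher in Ctx and 1 in BG, with a median of -1.35, and 14 of the 18 were called in all alternatives. Nfia, Nfib and Nfix, nuclear factor I genes that time neuronal and glial differentiation, were higher in Ctx. Nfix read 6073 and 6803 in Ctx and 1674 and 1577 in BG, at -1.97 ± 0.12, Nfib was at -2.10 ± 0.13 and Nfia at -1.67 ± 0.11. Their relative Nfic, outside the list, was at -0.62 ± 0.27 and was not called. Sox5, a factor of deep-layer neurons, read 1119 and 1180 against 195 and 205, at -2.43 ± 0.11. Of its 5 other probe sets, 4 were called in the same direction. Neurod1 was at -2.05 ± 0.15, Id2 at -1.83 ± 0.12, Mef2c at -1.45 ± 0.13 and Neurod2 at -1.35 ± 0.13. Tbr1, the factor of early cortical neurons, read 717 and 470 in Ctx and 229 and 193 in BG, at -1.40 ± 0.22, with the Ctx arrays spread. Nr4a2 was at -1.49 ± 0.16, but a dimmer probe set of it was called the other way, at 1.81 ± 0.15. Lmo4 was the member higher in BG, at 777 and 799 against 383 and 348 (1.08 ± 0.12).

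Genes of the cortical hem and medial pallium, sources of WNT and BMP signals, were also on the Ctx side: 7 of 13 were higher in Ctx and none in BG, with a median of -0.59. The WNT agonist Rspo3 read 239 and 409 in Ctx and 55.1 and 45.7 in BG, at -2.31 ± 0.24. Its relative Rspo2 was at -1.87 ± 0.15, Wnt7b at -1.56 ± 0.11 and the zinc finger gene Zbtb20 at -1.08 ± 0.12. The count was 4 without BG +/- replicate 2, without Ctx +/- replicate 2 or without Ctx +/- replicate 3. Of 9 genes of Cajal-Retzius cells, the Reln-secreting cells of the cortical surface, 4 were higher in Ctx and none in BG, with a median of -0.48. Reln read 1935 and 2638 in Ctx and 1153 and 1104 in BG, at -0.99 ± 0.16. Nhlh2 was at -1.77 ± 0.16 and Ndnf at -0.84 ± 0.14, and Trp73 lost its call without BG +/- replicate 2 (limma adjusted p = 0.0626).

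**Figure D3:**
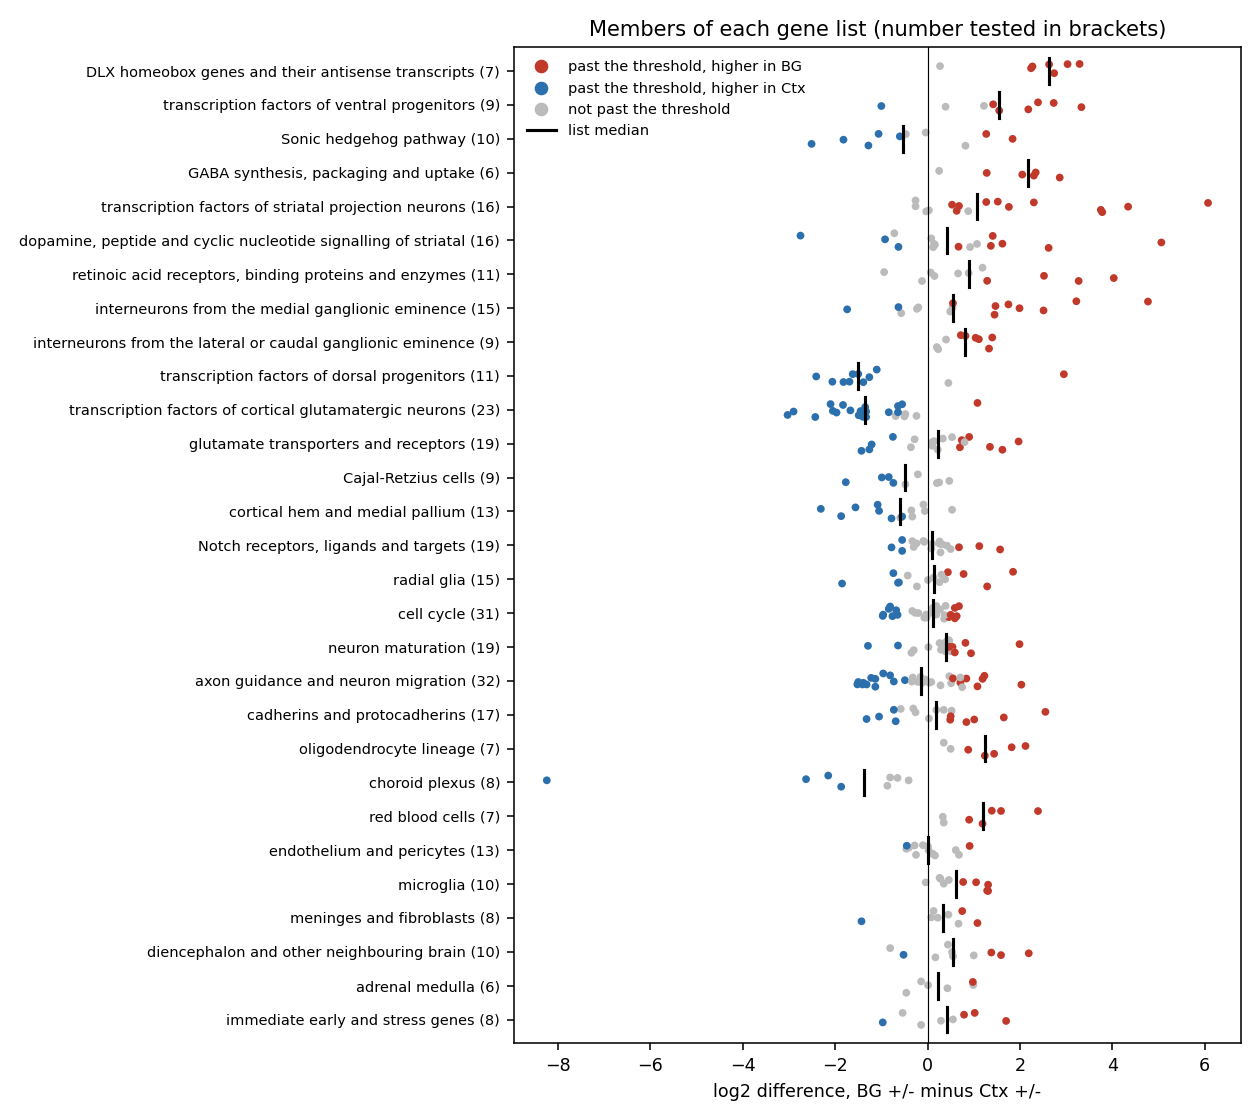
Each point is a gene, by its log2 difference BG +/- minus Ctx +/- (horizontal), in the lists with at least 3 members tested except the sex-linked one; red and blue mark genes called higher in BG and in Ctx, grey those not called, and the bar is the list median. The DLX and GABA lists have the highest medians, 2.63 and 2.17, and the dorsal progenitor and choroid plexus lists the lowest, -1.50 and -1.37.

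Glutamate transporters and receptors were split, with 6 of 19 higher in BG and 4 in Ctx and a median of 0.22. The vesicular transporter Slc17a6 read 488 and 640 in Ctx and 230 and 236 in BG, at -1.21 ± 0.16. The AMPA receptor subunit Gria2 read 1592 and 1848 against 602 and 652, at -1.43 ± 0.13, and Gria3 was at -1.26 ± 0.19. On the side of BG were the metabotropic receptor Grm7, at 202 and 159 against 36.3 and 31.8 (1.97 ± 0.23), and the kainate receptor subunit Grik1, at 1.62 ± 0.20. Without BG +/- replicate 2 the count higher in BG was 3.

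Axon guidance and migration genes also divided, with 7 of 32 higher in BG and 12 in Ctx and a median of -0.14. On the side of Ctx, the ephrin receptor Epha3 read 1221 and 1300 against 432 and 428, at -1.52 ± 0.11. The semaphorin receptor Nrp1 was at -1.50 ± 0.15, and the netrin receptors Unc5d and Dcc were at -1.41 ± 0.14 and -1.32 ± 0.12. Netrin itself was on the other side. Ntn1 read 257 and 189 in BG and 50.7 and 34.4 in Ctx, at 2.03 ± 0.22, and Plxnc1 and Efnb3 were at 1.23 ± 0.13 and 1.19 ± 0.14. Dropping either BG +/- array left 4 higher in BG. Of 17 cadherins and protocadherins, 6 were higher in BG and 4 in Ctx. Pcdh11x read 193 and 188 in BG and 21.3 and 17.4 in Ctx, at 2.55 ± 0.19, and Pcdh10 was at 1.65 ± 0.16, while Cdh10 (-1.32 ± 0.15) and Pcdh9 (-1.05 ± 0.11) were higher in Ctx.

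Genes of dividing cells and radial glia showed no common direction. Of 31 cell cycle genes, 6 were higher in BG and 7 in Ctx, with a median of 0.11, the same as over all genes. Those higher in Ctx included the mitotic genes Cenpf (-0.96 ± 0.11), Cenpe (-0.97 ± 0.14) and Top2a (-0.76 ± 0.12), and those higher in BG Ccnd1, Ccne1, Ccne2, Cdk1, Rrm2 and Mcm5, none above 0.68. The BG members numbered 1 when BG +/- replicate 2 or Ctx +/- replicate 3 was dropped, 0 when BG +/- replicate 3 was, and 3 when any -/- array was. Of 15 radial glia genes, 4 were higher in each region. Sox2, a progenitor factor, read 3211 and 3249 in BG and 1499 and 1152 in Ctx, at 1.29 ± 0.15, and Aldh1l1, a folate enzyme of glia, was at 1.85 ± 0.12. Hopx, which marks some radial glia, was at 405 and 402 in Ctx and 78.2 and 128 in BG (-1.85 ± 0.21).

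Of 19 Notch pathway genes, 3 were higher in BG and 3 in Ctx, with a median of 0.10. The share called, 31.6%, was near the 24.8% over all genes. The divergent ligand Dll3 read 340 and 338 in BG and 156 and 139 in Ctx, at 1.12 ± 0.15, and the target Hes5 1145 and 691 against 323 and 257, at 1.57 ± 0.35. Hes5 lost its call without BG +/- replicate 2 or either Ctx +/- array. Notch2 was at -0.78 ± 0.14 and turned to 0.22 with the mean of its probe sets. Without BG +/- replicate 2, 1 member was higher in BG and 0 in Ctx, and without BG +/- replicate 3 or without Ctx +/- replicate 3 the Ctx count was 1. Of 19 neuron maturation genes, 6 were higher in BG and 2 in Ctx, with a median of 0.39. The neurofilament gene Nefl read 661 and 636 in BG and 144 and 160 in Ctx, at 1.99 ± 0.12, and the growth cone gene Gap43 was at 0.94 ± 0.12. Snap25, of the vesicle fusion machinery, was at 1378 and 1449 in Ctx and 536 and 598 in BG (-1.29 ± 0.12). The BG count was 3 without either BG +/- array or without Ctx +/- replicate 3, and the Ctx count 1 without BG +/- replicate 3.

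Of 7 oligodendrocyte lineage genes, 5 were higher in BG and none in Ctx, with a median of 1.24. Pdgfra, the receptor of oligodendrocyte precursors, read 134 and 167 in BG and 52.3 and 38.4 in Ctx, at 1.44 ± 0.16. Sox8 was at 1.82 ± 0.18, Gpr17 at 2.12 ± 0.29 and Cnp at 1.24 ± 0.16. Mbp was at 0.88 and lost its call with an offset of 1, without the filter and with only the 4 +/- arrays. The call was also lost without either BG +/- array, either Ctx -/- array or Ctx +/- replicate 3. Sox10 and Cspg4, at 0.50 and 0.35, were not called.

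Markers of the choroid plexus, of red blood cells and of microglia moved with the regions. Of 8 choroid plexus genes, 4 were higher in Ctx and none in BG, with a median of -1.37. Their summed signal was 12288 and 14097 in Ctx +/- and 208 and 190 in BG +/-, and in Ctx nearly all of it was Ttr. Kcne2 read 135 and 126 in Ctx and 11.7 and 4.09 in BG, and Calml4 112 and 68.7 against 12.1 and 3.62. Aqp1 was at -1.87 and lost its call with an offset of 1, without the filter, and without any array other than the BG -/- ones. Folr1, Clic6, Kcnj13 and Sostdc1 were not called, and Kl was below the filter. The part of choroid plexus in the hem and Ctx results was not tested. 

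Of 7 red blood cell genes, 5 were higher in BG, with summed signals of 6860 and 6605 in BG and 2483 and 2144 in Ctx. The embryonic globin Hbb-y read 5819 and 5476 against 1956 and 1776, at 1.59 ± 0.13. The count was 3 without either BG +/- array or without Ctx +/- replicate 3. Of 10 microglia genes, 5 were higher in BG, with sums of 1139 and 1275 against 599 and 590. The complement gene C1qa and the adaptor Tyrobp were both at 1.31, and 3 members were called without BG +/- replicate 2, 2 without BG +/- replicate 3. The part of blood and microglia in the other BG results was not tested.

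Of 13 endothelial and mural genes, 1 was higher in BG (Pdgfrb, 0.91) and 1 in Ctx (Abcc9, -0.45). The share called, 15.4%, was under the 24.8% over all genes. Pdgfrb lost its call without BG +/- replicate 2 or Ctx +/- replicate 3, and Abcc9 without any 1 array. Of 8 meningeal genes, 2 were higher in BG and 1 in Ctx, the matrix gene Dcn at 30.9 and 55.6 in Ctx and 2.76 and 8.69 in BG. Foxc1 alone of these 2 stayed called without either BG +/- array, either Ctx -/- array or Ctx +/- replicate 3, and without Ctx +/- replicate 2 there were 3. Among 10 genes of the diencephalon and nearby brain regions, 3 were higher in BG, and 5 without Ctx +/- replicate 2. The hypothalamic homeobox gene Otp read 218 and 212 in BG and 31.3 and 37.9 in Ctx, at 2.19 ± 0.15, with Barhl2 at 1.59 and Gbx2 at 1.38. Gbx2 lost its call without BG +/- replicate 2 (limma adjusted p = 0.054) and with an offset of 1. Lhx9, at -0.52, was higher in Ctx. Among the fits that left out an array, its call was kept only without Ctx +/- replicate 3. The part of neighbouring tissue in the BG results was not tested.

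Of 6 adrenal medulla genes, only Pnmt was called, at 97.2 and 87.1 in BG and 32.9 and 45.3 in Ctx, and it lost its call without any array other than the BG -/- ones. The share of this list called, 16.7%, was under the 24.8% over all genes. Th, the enzyme that defines catecholamine cells, read 52.2 and 14.2 against 11.5 and 2.9 and was not called, and Phox2a was below the filter. Of 8 immediate early and stress genes, 3 were higher in BG and 1 in Ctx, or 2 in Ctx without Ctx +/- replicate 2. The heat shock gene Hspa1b read 266 and 236 in BG and 61.3 and 71.4 in Ctx, at 1.70 ± 0.15, and Ier2 was at -0.97 ± 0.16. The near-identical copy of Hspa1b, Hspa1a, at 0.79 ± 0.12, may share transcripts with it on these probe sets. Of 4 sex-linked genes, 3 were called higher in Ctx: Xist at -0.58, Eif2s3y at -0.61 and Uty at -1.03. None of these 3 kept its call in all alternatives.

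The same regional contrast was set beside that of the -/- arrays, which share no array with it. In -/-, 2544 of 13627 genes were called, 18.7%: 1556 higher in BG (11.4%) and 988 in Ctx (7.25%). Of the 1912 genes higher in BG +/-, 926 were also called higher in BG -/-, which is 48.4% of the first list and 59.5% of the 1556 in the second. Of the 1463 genes higher in Ctx +/-, 591 were called in Ctx -/-, 40.4% of the first and 59.8% of the 988 in the second. The sign was shared by 93.6% and 87.7% of the +/- genes. The share over all genes tested was not counted, and over them the 2 contrasts correlated at 0.722 (Pearson). Isl1, Lhx8, Pbx3, Zfhx3 and Gsx2 were at 5.56, 3.87, 4.32, 3.73 and 3.32 in -/-, and Fezf2, Neurog2 and Nfix at -3.68, -2.79 and -2.26.

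The difference between the 2 contrasts was called for 46 genes, 0.338%, of which 9 were positive (0.0660%) and 37 negative (0.272%), and for 181 probe sets, 0.574%. An unadjusted p under 0.05 was found for 2087 genes, 15.3%. Leaving out any 1 array reduced the 46 to 1 or 2, and Ttr was called in each of these fits. The regional difference of Dlx1 was 3.03 in +/- and 0.46 in -/-, a change of 2.56 ± 0.30 (limma adjusted p = 0.0359). Dlx1 is itself mutated, and its -/- arrays were near the floor, at 3.67 and 15.5 in BG and 2.42 and 1.74 in Ctx. The position of its probe set relative to the mutation was not examined. The regional difference of Foxp1 was 1.27 against -0.86. For Gad1, Lhx6 and Sst the regional difference was smaller in +/- than in -/-. It was 2.34 against 5.48 for Gad1, 1.47 against 4.21 for Lhx6 and 2.51 against 4.99 for Sst, and their Ctx arrays read 10.1 and 20.3 for Gad1 and 7.19 and 8.95 for Lhx6 in -/-. In the medial eminence list, Npy (1.75 against 3.47) and Nxph1 (1.45 against 3.33) were also called for the difference in this direction. Lhx8 and Calb1 of that list did not share it. They were at 4.77 in +/- against 3.87 in -/- and at 3.22 against 2.95, neither called for the difference (limma adjusted p = 0.11 and 0.518). Without any 1 array the calls of Dlx1, Foxp1 and Sst were lost, with adjusted p up to 0.366 over all alternatives for Dlx1. Gad1 kept its call without Ctx -/- replicate 3, and Lhx6 without Ctx +/- replicate 2.

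**Figure D4:**
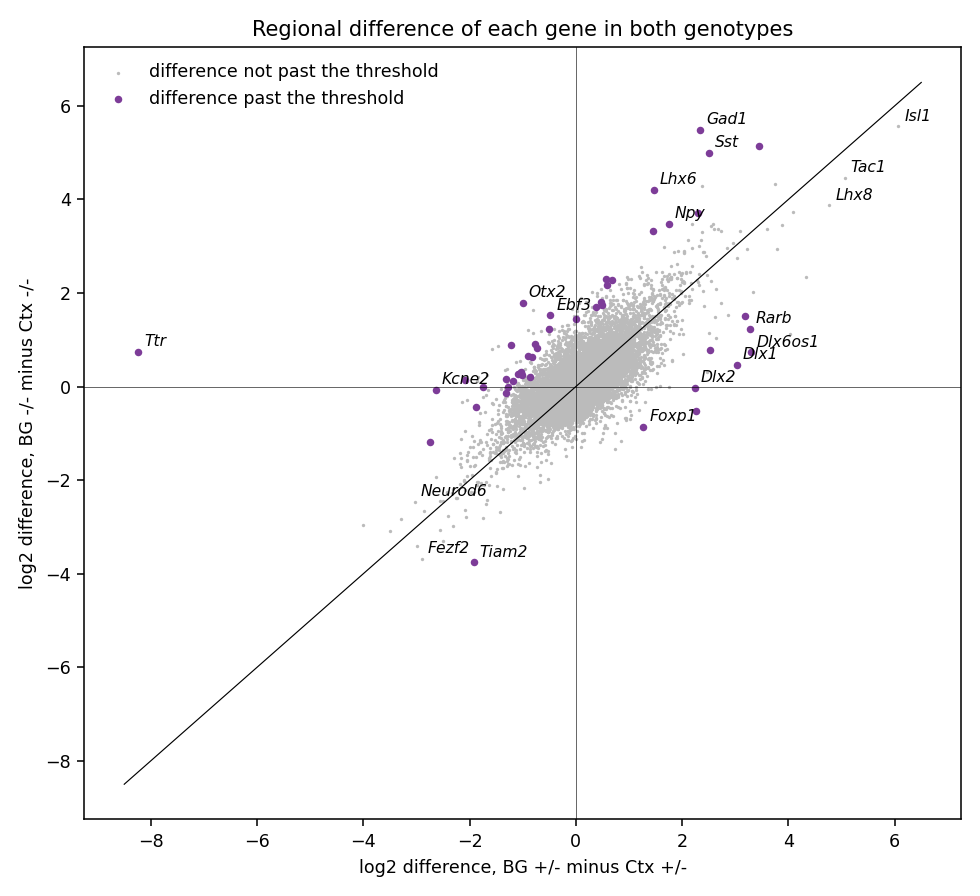
Regional log2 difference, BG minus Ctx, of each gene in +/- (horizontal) and in -/- (vertical), with the line of equal difference and purple points for the 46 genes called for the difference between the contrasts. Isl1 lies near the line at 6.07 and 5.56, Ttr far from it at -8.24 and 0.74, and Gad1, Lhx6 and Sst above it.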

How the data were processed

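The 8 arrays hold 45101 probe sets each. The authors deposited 1 summarised intensity per probe set, on a linear scale and already scaled, since every array has a trimmed mean of 150.001. The labels name no software or settings. After removal of 64 controls, the annotation table named 1 gene for 34945 of 45037 probe sets, several for 932 and none for 9160.

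Signals were taken as log2(signal + 16). The lowest 30% of probe sets by mean log2 were left out, which kept 31526. In limma 3.58.1 (R 4.3.3), 4 group means were fitted to all 8 arrays with lmFit and eBayes (4 residual, 2.76 prior degrees of freedom), with two-sided p-values, Benjamini-Hochberg adjustment and a threshold of 0.05. A gene is its single-symbol probe set of highest mean log2. The fit was tested on simulated data.

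Groups came from the titles. Named were the DLX genes, the 20 genes of largest difference in each direction among called genes whose arrays did not overlap (3 clone names skipped), list members by smallest p, called members of the 5 main lists, and 8 genes in each direction for the genotype difference. Other list members, other probe sets and genes outside this rule were chosen after their values were seen. The members and lists were chosen with earlier results of these data known. Promoter windows come from RefSeq, GRCm38.p6. Alternatives were offset, filter, normalization, arrays fitted, replicate block, variance trend, mean of probe sets and each array left out.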

Additional observations from a re-analysis of the deposited data

Results flagged for a closer look

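Each gene here was singled out because its regional difference, BG minus Ctx, differed between +/- and -/- by limma's test of that difference (adjusted p under 0.05). Values are the +/- difference minus the -/- difference on the log2 scale. Sex-linked genes also separate +/- from -/-, and their part was not tested.

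The regional difference was more positive in +/- for the mutated genes Dlx1 (2.56) and Dlx2 (2.28) and the antisense transcript Dlx1as (2.80), for Dlx6os1 (2.56), for the retinoid genes Rarb (2.04) and Crabp1 (1.73), and for Egr3 (1.68), Foxp1 (2.13) and Tiam2 (1.84). Dlx1, Dlx2 and Dlx1as were near the floor in all -/- arrays, between 1.74 and 17.2. The position of their probe sets relative to the mutation was not examined. Rarb read 270 and 271 in BG +/- and 37.3 and 39.5 in BG -/-. Tiam2, an exchange factor for Rac, was higher in Ctx in both genotypes, by -1.92 in +/- and -3.76 in -/-.

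It was more negative in +/- for Gad1 (-3.14), Gad2 (-1.40), Sst (-2.48), Npy (-1.71), Lhx6 (-2.74) and Nxph1 (-1.88), which GABAergic interneurons express. The same held for Ttr (-8.98), Kcne2 (-2.56), Otx2 (-2.77), Arpp21 (-1.57), Ebf3 (-2.01), Zbtb20 (-1.35) and Fancm (-2.11). Ttr read 11634 and 13605 in Ctx +/- and 1.11 and 0.701 in Ctx -/-, and it alone of these 22 genes passed in all 17 alternatives run. Of the others, none passed in more than 9.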

How the results depend on the processing

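The 20 leading genes in each direction kept call and direction in every alternative in which they were tested, as did 139 of the 186 named genes past the threshold. The leading genes were picked by size in these same arrays, so that is not separate support for them. Probe sets called numbered 3466 (1466 higher in BG, 2000 in Ctx; genes 819 and 684) with only the 4 +/- arrays. Median centring gave 2234 probe sets and 1199 genes higher in BG. Leaving out 1 array gave 3898 to 6948 probe sets, 1471 to 3797 higher in BG and 2385 to 3345 in Ctx, and 827 to 1927 genes higher in BG and 826 to 1208 in Ctx.

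The genotype difference of the contrast, called for 181 probe sets and 46 genes, was called for 6 and 4 with an offset of 1, 911 and 302 with 64, 10 and 5 without the filter, 1033 and 318 with a stricter filter on low signals, 53 and 17 with median centring, 1816 and 728 with a variance trend, 3 to 4 and 1 to 2 without any 1 array, and 23 genes with the mean of probe sets. The cause was not tested.

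Arrays of the same replicate number showed no shared deviation: deviations of BG +/- and Ctx +/- correlated at -0.0262 and of other groups at -0.00672 to 0.0218. Correlations near 0 cannot tell whether such arrays share animals or a hybridisation day, so pairing by replicate number remained unknown. The replicate block gave 3051 probe sets higher in BG, 3588 in Ctx, and 4 probe sets and 1 gene for the genotype difference.

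Values that changed sign were Notch2 at 0.22 and Dbh at 0.15 with the mean of probe sets, and, over the fits without 1 array, Dlx3 (-0.18 to 0.72) and Slc18a1 (-0.58 to 0.31). Among other probe sets of called genes, 85.6% of those for BG and 80.6% of those for Ctx shared the sign. Fewer were themselves called in the same direction, 522 of 1419 for BG and 842 of 2122 for Ctx, and 19 and 27 were called the opposite way. The share over all genes was not counted. With 2 arrays a group and signals under 16 for 25.6% to 34.1% of probe sets, differences of dim genes are the least certain.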

Other observations

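Beyond the 20 leading genes in each direction, the next 20 hold further neuronal genes, looked up after the values were seen. Higher in BG were the microtubule-severing gene Fign, at 190 and 139 in BG +/- against 2.08 and 18.8 in Ctx +/- (2.84 ± 0.32 on the log2 scale), and the HMG-box gene Tox2, at 1059 and 827 against 110 and 160 (2.67 ± 0.20). The calcium sensor Vsnl1 (2.54 ± 0.23), the kinase Camk2a (2.50 ± 0.22), the secretogranin Scg2 (2.44 ± 0.23) and the chloride extruder Slc12a5 (2.42 ± 0.19) were also in this range. Slc12a5 sets the chloride gradient on which inhibitory GABA responses depend.

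Higher in Ctx were the centrosomal gene Nin, at 468 and 455 in Ctx +/- against 90 and 87.1 in BG +/- (-2.19 ± 0.17), and the potassium channel Kcnq3, at 660 and 678 against 131 and 144 (-2.16 ± 0.14). The calcium channel subunit Cacna2d1 (-2.16 ± 0.17), the phosphatase Dusp14 (-2.09 ± 0.13), the netrin relative Ntng2 (-2.08 ± 0.24) and the procollagen protease Adamts3 (-2.08 ± 0.15) followed. All had non-overlapping arrays, as their selection requires.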
